A study of Mus musculus with 2 samples.

Results

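The IL-6 family genes described here encode 3 cytokines (*Il6*, *Il11*, *Lif*), 4 receptor chains (*Il6ra*, *Il6st*, *Lifr*, *Osmr*), the kinase JAK1, the transcription factor STAT3 and its feedback inhibitor SOCS3. They were chosen by name, as all non-control probes of the microarray that carry 1 of these 10 gene names, which gave 20 of 56605 probes and 10 of 37074 gene names. RNA came from MCMs, mouse cardiomyocytes bought as cultured cells and passaged, in which *Ppp2r5d* was knocked down to ask which genes change with it. Its product is a regulatory B′ subunit, the delta isoform, of the phosphatase PP2A. A culture labelled siRNA-nc (siRNA-NC here) received a negative control siRNA, and a culture labelled siRNA-ppp2r5d (siRNA-*Ppp2r5d* here) received an siRNA against *Ppp2r5d*. Both were grown in medium with 2% serum and transfected with the same lipid reagent. They were moved to glucose-free medium 48 h after transfection and collected at 64 h. Neither label names ISO or a cytokine treatment. There was 1 array per condition and no replicate, so no p-value was computed, and a difference between the arrays cannot be told apart from a difference between 2 cultures.

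Cytokines of the IL-6 family bind a specific receptor chain at the cell surface and signal through the shared chain gp130, the product of *Il6st*. IL-6 and IL-11 use their own alpha receptors, whereas LIF and oncostatin M pair gp130 with LIFR or OSMR. The paired chains activate JAK kinases, above all JAK1, which phosphorylate STAT3 on a tyrosine, and STAT3 then enters the nucleus and activates genes such as *Socs3*, whose product blocks the receptor complex. In the heart this pathway is known for its part in hypertrophy, cell survival and inflammation. The arrays measured mRNA only, not the cytokine proteins and not the phosphorylation of STAT3.

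The stretches just before the start sites of *Socs3* and *Il6* are shown because they are the best known control regions of the pathway. They are the 250 bases before the annotated start, from RefSeq on build GRCm38.p6, which also held entries for all 10 genes. That of *Socs3* lies on the minus strand at chr11:117969367-117969616, and that of *Il6* on the plus strand at chr5:30012864-30013113. Capitals mark matches, on either strand, to TTCNNNGAA (the GAS element bound by STAT factors), TTGCNNAA (a form of the C/EBP element) and a form of the kB element of NF-kB, which is GGG, any 2 bases and TTTCC.
Socs3 promoter: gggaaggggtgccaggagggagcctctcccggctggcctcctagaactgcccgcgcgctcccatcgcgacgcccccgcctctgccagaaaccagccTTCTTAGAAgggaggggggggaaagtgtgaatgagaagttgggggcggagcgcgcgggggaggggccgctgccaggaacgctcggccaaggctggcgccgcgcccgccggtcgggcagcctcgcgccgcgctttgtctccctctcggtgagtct
Il6 promoter: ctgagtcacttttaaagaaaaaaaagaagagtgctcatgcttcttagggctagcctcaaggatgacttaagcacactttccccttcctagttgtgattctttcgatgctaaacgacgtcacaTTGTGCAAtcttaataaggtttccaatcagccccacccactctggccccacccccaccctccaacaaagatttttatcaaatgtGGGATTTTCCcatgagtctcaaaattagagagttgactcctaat
The *Socs3* stretch held 1 GAS match, TTCTTAGAA, which begins at -154 from the start site. The *Il6* stretch held a kB match, GGGATTTTCC, beginning at -44 and a C/EBP match, TTGTGCAA, beginning at -128, and no GAS match. None of the 3 motifs was found in the same stretches of the other 8 genes. Over the same length of 32851 promoters in the reference, 7.02% held the GAS letters, 1.41% the kB letters and 9.56% the C/EBP letters. A match of letters is a description and not a measured binding site.

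*Ppp2r5d* itself read 4701 with siRNA-NC and 676 with siRNA-*Ppp2r5d*, a log2 fold change of -2.61 or 6.09-fold lower after scaling. With siRNA-NC 59.9% and with siRNA-*Ppp2r5d* 59.3% of 59305 non-control spots stood well above background, and 0 were saturated. The 75th percentile of intensity was 592 with siRNA-NC and 518 with siRNA-*Ppp2r5d*, and log2 fold changes are given after this percentile was subtracted. Over 20311 genes measured on both arrays, the middle 90% of log2 fold changes lay between -0.57 and 0.49, with a median of 0.025. Of the cardiomyocyte markers, 13 of 19 were well above background on both arrays, among them *Actc1*, *Tnnt2* and *Nkx2-5*. *Actn2*, *Myl2*, *Myl7* and *Pln* were well above background on neither, and *Myh6* and *Ryr2* on 1 only. Several measured ones were dim with siRNA-NC, such as *Nppa* with 16.6, *Nppb* with 17.1, *Csrp3* with 37.7 and *Myh7* with 48.1. Of 9 fibroblast markers, 7 were measured, among them *Col1a1* and *Postn*, while *Thy1* and *Tcf21* were not. The mean scaled log2 value of the measured markers was -1.85 with siRNA-NC and -1.47 with siRNA-*Ppp2r5d* for cardiomyocytes, 1.72 and 1.89 for fibroblasts, and 0.32 and 1.04 for the 4 smooth muscle markers. Of the cardiomyocyte markers 9 were higher and 4 lower, with a median log2 fold change of 0.42. The dim *Csrp3* had 1.93, *Myl3* 0.90 and *Ttn* 0.89, while *Cox6a2* was lowest with -0.71. The fibroblast markers did not move together, with 3 higher and 4 lower and a median log2 fold change of -0.050, and the higher mean came with *Lum* at 1.08 and *Pdgfra* at 0.62. Among the smooth muscle markers *Cnn1* had 2.41 and *Tagln* 0.85, while *Acta2* had -0.021 and *Myh11* -0.38. Of 5 endothelial markers 1 was measured on both arrays. The part of these marker shifts in the values below was not tested.

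Of the 20 probes of the IL-6 family genes, 19 had signals well above background on both arrays, and each gene had at least 1 such probe. After scaling, 7 probes were higher and 12 lower with siRNA-*Ppp2r5d*, and 1 probe, of *Il6ra*, differed by at least 2-fold. Among all 31611 probes well above background on both arrays, 1.81% did. Every probe was a single spot, and the error given with a log2 fold change below is that of the scanner software for the 2 spots, which assumes 10% per spot and covers neither the culture nor the labelling. It ran from 0.20 for bright probes to 0.31 for the dimmest. By this error, 9 of the 19 differences were smaller than 1 error and 2 were larger than 2 errors, both of them of *Il6ra*. Where a probe of the array is spotted many times, the log2 fold changes of its spots had a median SD of 0.036 over 283 such probes. Of these, 268 read over 1000, with a median SD of 0.035, far under the software's 0.20 for bright probes. The 5 that read under 100 had a median SD of 0.21, beside software errors of 0.22 to 0.31 for the member probes that dim. The spot error named below is the software's, which for bright probes is the wider of the 2 measures.

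**Figure D1:**
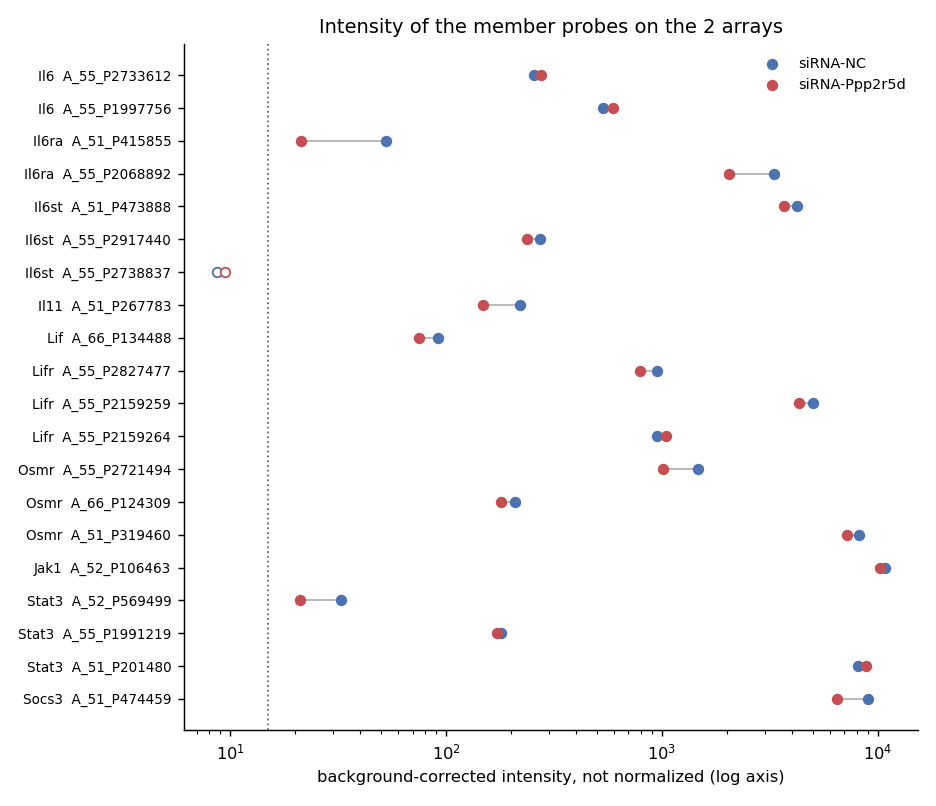
Background-corrected intensity, before scaling, of the 20 probes of the IL-6 family genes on a log axis, for siRNA-NC (blue) and siRNA-Ppp2r5d (red). The open symbols of 1 Il6st probe were not well above background on either array, and the dotted line, at 14.9, is the lowest signal that counted as well above background with siRNA-NC. The widest gaps are those of both Il6ra probes.

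Among the cytokines, the *Il6* mRNA, the ligand that the study followed by other assays, had slightly higher values with siRNA-*Ppp2r5d*, and those of *Il11* and *Lif* were lower. *Il6* has 2 probes. The probe A_55_P1997756, at chr5:30346367-30346426 of build mm9, read 533 with siRNA-NC and 596 with siRNA-*Ppp2r5d*, a log2 fold change of 0.35 ± 0.20. The probe A_55_P2733612, at chr5:30346159-30346218, read 255 and 276, a log2 fold change of 0.30 ± 0.21. Both probes were thus higher in intensity before any scaling as well, and the gene's mean was 0.33, or 1.25-fold higher. This is the highest value of the 10 genes, and it lies inside the middle 90% of all genes. It stayed above 0 under all 10 alternative settings, the lowest being 0.099 with scaling to spike-in probes. Some of these could not move it. The 2 other filters on dim probes left *Il6* at 0.33, because both probes were well above background. The deposited log2 values gave 0.35, as did quantile normalization, which they nearly repeat.

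*Il11*, a ligand known for its role in fibrosis, was read by 1 probe at chr7:4724847-4724906, which read 219 with siRNA-NC and 148 with siRNA-*Ppp2r5d*. Its log2 fold change was -0.38 ± 0.21, or 1.30-fold lower, and all 10 alternatives kept it below 0. The 2 other filters and the choice of 1 probe per gene could not move it, because its 1 probe was well above background. *Lif*, leukemia inhibitory factor, was read by 1 dim probe at chr11:4172032-4172091, with 92.0 and 75.1. Its log2 fold change of -0.10 ± 0.22 was smaller than the spot error, and it turned to 0.047 after normexp background correction. Of the 3 cytokines, *Il6* was thus on one side and *Il11* on the other of all genes' median, each by less than 2-fold.

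Among the receptor chains, *Il6ra* had the largest difference of the 10 genes and *Il6st*, *Lifr* and *Osmr* had gene means near that of all genes. *Il6ra* encodes the chain that binds IL-6. Its probe A_55_P2068892, at chr3:89674054-89674113 on the minus strand, read 3311 with siRNA-NC and 2046 with siRNA-*Ppp2r5d*, a log2 fold change of -0.50 ± 0.20. Its probe A_51_P415855, at chr3:89680743-89680802, read 52.9 and 21.4, a log2 fold change of -1.11 ± 0.29, or 2.17-fold lower. Both probes read lower, and the gene's mean was -0.81, or 1.75-fold lower. The sequence of the probe past 2-fold is given from the scanner files because it alone carries a 2-fold difference.
Il6ra A_51_P415855: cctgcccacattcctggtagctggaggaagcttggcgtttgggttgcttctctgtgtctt
This sequence of 60 bases belongs to 1 probe of the array only. Which exon or untranslated region a probe lies in was not analysed here.

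The size of the *Il6ra* difference depends on which probe is read. The dim probe is the 1 member probe past 2-fold, and among all 8802 probes with an intensity under 100 on the siRNA-NC array, log2 fold changes had an SD of 0.44 and 1.49% were at least 2-fold lower. The bright probe lay outside the middle 90% of the 11774 probes with an intensity over 1000, which ran from -0.36 to 0.37. The gene mean of -0.81 was below the 5th percentile of all genes, and 9 of the 10 members lay inside the middle 90%. It stayed below 0 under all 10 alternatives, from -1.04 with scaling to spike-in probes, where it passed 2-fold, to -0.39 after normexp correction, and it was the lowest member under each of them. Leukocytes are a known source of *Il6ra*, and 5 of 6 leukocyte markers were measured on both arrays. Their mean scaled log2 value was 0.57 with siRNA-NC and 0.30 with siRNA-*Ppp2r5d*. *Cd68* and *Lyz2* had log2 fold changes of -0.77 and -0.68, *Ptprc*, the common leukocyte antigen, 0.13, *Itgam* 0.034 and *Csf1r* -0.065. *Adgre1* was not well above background on either array. The leukocyte markers did not move together, with 2 higher and 3 lower and a median log2 fold change of -0.065. Their part in the *Il6ra* difference was not tested, and in RNA of a whole culture fewer cells of a type and less RNA per cell cannot be told apart.

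*Il6st*, which encodes gp130, had 2 probes well above background, at chr13:113296586-113296645 and chr13:113294595-113294654. The first read 4249 and 3683 and the second 273 and 237, for siRNA-NC and siRNA-*Ppp2r5d*. Both had a log2 fold change of -0.015, with errors of 0.20 and 0.21, so these probes differed by far less than the spot error. The third probe, designed to a GenBank record, read 8.72 and 9.51 and was not well above background. The gene mean changed sign under 3 of the 10 alternatives. The 2 other filters gave 0.096 because they add the third probe, and median scaling gave 0.014. No difference of the shared chain was detectable with these arrays.

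*Lifr*, the LIF receptor, had 3 probes that did not point the same way. The probes A_55_P2159259 and A_55_P2827477, designed to transcript variant 1, read 4992 and 4325 and 946 and 791, with log2 fold changes of -0.015 and -0.067, each with an error of 0.20. The probe A_55_P2159264, at chr15:7135072-7135131 and designed to transcript variant 2, read 950 and 1043, with a log2 fold change of 0.33 ± 0.20. It was the 1 *Lifr* probe with a higher intensity on the siRNA-*Ppp2r5d* array, 0.37 above the mean of the others on the log2 scale. *Osmr*, the oncostatin M receptor, had 3 probes as well. A_51_P319460 read 8185 and 7242 and A_66_P124309 read 209 and 179, with log2 fold changes of 0.015 and -0.030, both under the spot error. The third, A_55_P2721494, at chr15:6804987-6805046, was designed to an Ensembl transcript and read 1476 and 1011, a log2 fold change of -0.35 ± 0.20. It differed from the mean of the others by -0.35 on the log2 scale.

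**Figure D2:**
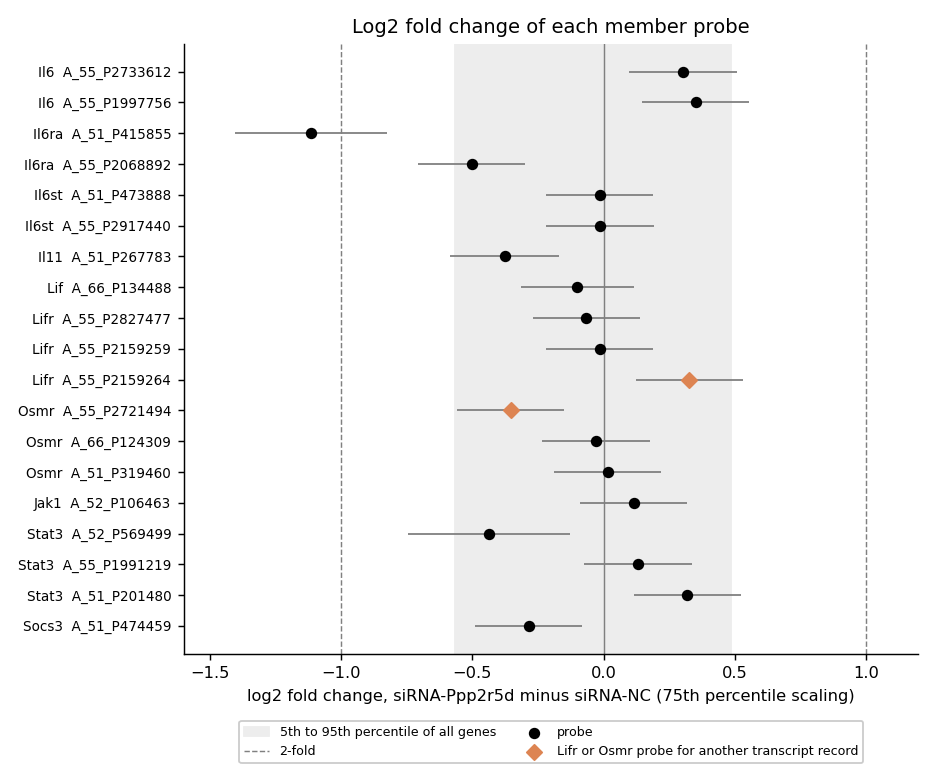
Log2 fold change, siRNA-Ppp2r5d minus siRNA-NC after scaling to the 75th percentile, of the 19 probes well above background on both arrays, with the software's spot error as bars (1 array per condition). The grey band is the middle 90% of all genes, dashed lines mark 2-fold, and diamonds are the probes of Lifr and Osmr designed to another transcript record than the other probes of the gene. A probe of Il6ra, at -1.11, is the 1 point past 2-fold.

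*Jak1*, the kinase bound to gp130, was read by 1 bright probe at chr4:100825094-100825153, which read 10822 and 10258. The log2 fold change was 0.11 ± 0.20, which is under the spot error, and it was -0.11 with scaling to spike-in probes.

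*Stat3* had a gene mean of 0.0041, which is the average of 3 probes that read differently. The probe A_51_P201480, at chr11:100749598-100749657 and designed to transcript variant 1, read 8097 with siRNA-NC and 8844 with siRNA-*Ppp2r5d*, a log2 fold change of 0.32 ± 0.20. The probe A_55_P1991219, at chr11:100759946-100760005, was designed to variant 3 and read 180 and 172, a log2 fold change of 0.13 ± 0.21. The probe A_52_P569499, at chr11:100746462-100746521, was designed to an Ensembl transcript and read 32.5 and 21.0, close to the lowest signal well above background. Its log2 fold change was -0.44 ± 0.31, which differs from the mean of the others by -0.66 on the log2 scale. With the brightest probe alone the gene was at 0.32, or 1.25-fold higher, and with scaling to spike-in probes the mean of the 3 was -0.22. No single direction can be given for *Stat3* mRNA.

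*Lifr*, *Osmr* and *Stat3* are the members whose probes differ in sign. In *Lifr* and *Osmr* the probe farthest from the others is the one designed to a different transcript record, while the 3 *Stat3* probes were each designed to a record of their own. This was noticed after the values were seen. Over 7139 genes with at least 2 measured probes, the SD between probes of a gene had a median of 0.12 and all probes had the same sign in 59.1% of genes. Among the 6 members with several measured probes the signs matched in 3 (*Il6*, *Il6ra* and *Il6st*), and the SD between probes was 0.035 for *Il6*, 0.20 for *Osmr*, 0.21 for *Lifr*, 0.39 for *Stat3* and 0.43 for *Il6ra*.

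*Socs3*, the feedback inhibitor and a direct target of STAT3, was read by 1 probe at chr11:117827480-117827539, which read 9044 in the control culture and 6493 after knockdown. Its log2 fold change was -0.29 ± 0.20, or 1.22-fold lower. It was the third lowest member, it lay inside the middle 90% of probes of its brightness, and it was below 0 under all 10 alternatives, from -0.51 to -0.26. *Il6* and *Socs3*, whose upstream stretches are printed above, thus had values on opposite sides of 0. A link of the motifs to these values was not tested.

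Counted by gene, 4 of the 10 members were higher and 6 lower, with a median log2 fold change of -0.058 against 0.025 for all genes, and 0 were past 2-fold. Of 21615 genes with a value or a bound, 2.47% were past 2-fold, 1.03% higher and 1.44% lower, so a count of 0 among 10 is near the background. Inside the quartiles of all genes, -0.16 to 0.18, lay 6 members.

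**Figure D3:**
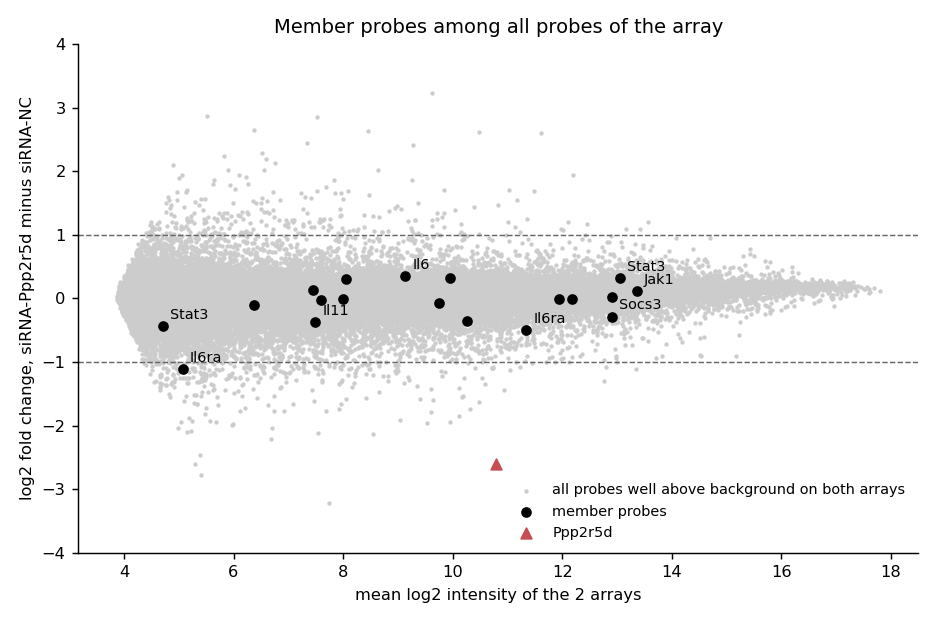
Log2 fold change against the mean log2 intensity of the 2 arrays for all 31611 measured probes (grey), the 19 member probes (black, some named) and Ppp2r5d (triangle). Dashed lines mark 2-fold. The member probes lie within the grey cloud at their brightness, and Ppp2r5d lies at -2.61.

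The rest of the pathway was read through 6 lists with 91 genes, of which 76 had a value or a bound. Of these, 1 gene was past 2-fold, or 1.32%, beside 2.47% of all genes. Among 9 other ligands and ligand partners, 5 were measured, 3 of them higher and 2 lower, with a median of 0.046. This median was below 0 under 4 of the 10 alternatives, down to -0.18 with spike-in scaling. *Cntf*, ciliary neurotrophic factor, was highest with 0.27 and *Ctf1*, cardiotrophin 1, lowest with -0.22, each from 1 probe. *Osm*, *Ctf2*, *Ebi3* and *Il31* were not well above background on either array, so oncostatin M mRNA was not detectable beside its receptor.

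Of the other receptor chains and the receptor sheddases ADAM10 and ADAM17, 5 of 7 were measured, with 1 higher and 4 lower and a median of -0.13. *Il27ra*, the IL-27 receptor chain that pairs with gp130, was lowest with -0.95, or just under 2-fold, from 1 probe that read 284 with siRNA-NC. *Il11ra1*, the receptor chain for IL-11, had -0.16, *Adam10* had -0.13, and *Adam17*, which can release the IL-6 receptor from the cell surface, was highest with 0.0028. Of the other JAK kinases and STAT factors, 7 of 9 were measured, with 1 higher and 6 lower and a median of -0.24, which stayed below 0 under all 10 alternatives, from -0.46 to -0.057. *Jak2* was lowest with -0.47, and both of its probes were low, at -0.48 and -0.45. *Tyk2* was highest with 0.17. *Stat2*, which carries interferon signals, had -0.34, but its probes disagreed, with -0.68 for one and -0.0065 for the brighter one. *Stat5b* had -0.26 and *Stat4* was not detected.

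All 20 feedback inhibitors, phosphatases and adaptors were measured, 11 higher and 9 lower, with a median of 0.0028, which was below 0 under 1 of the 10 alternatives. Members of the SOCS family lay on both sides. *Cish*, a target of STAT5, was lowest of the list with -0.87 from 1 dim probe that read 58.8 with siRNA-NC, and *Socs1*, which like *Socs3* binds JAK kinases, had -0.32. *Socs5* was highest with 0.39, *Socs6* had 0.37, *Socs4* 0.32 and *Socs2* 0.20. *Ptpn11*, which encodes the phosphatase SHP2 recruited to gp130, had 0.12. *Ndufa13*, a complex I subunit that binds STAT3 in mitochondria, had -0.090 from 2 probes of opposite sign.

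Of 30 genes described as STAT3 targets, 23 were measured, 8 higher and 15 lower, with a median of -0.051. Under the 10 alternatives this median ran from -0.28 to -0.022, and it was -0.16 with quantile normalization, cyclic loess or the authors' log2 values. *Ccnd1*, cyclin D1, was the 1 gene past 2-fold with -1.11, and *Birc5*, survivin, had -0.80. Both are also genes of the cell cycle. *Saa3* and *Lcn2*, of the acute phase response, had -0.66 and -0.41, each from 1 probe, which read 145 and 71.2 with siRNA-NC. *Bcl3* had -0.44, *Fos* -0.39 and *Ccl2* -0.34. The 7 genes well above background on neither array were *Hp*, *Fgb*, *Serpina3n*, *Lrg1*, *Icam1*, *Steap4* and *Twist1*. On the other side, *Irf1* was highest with 0.57, but its 2 probes had -0.083 and 1.23. *Cebpb*, a C/EBP factor that binds the *Il6* promoter, had 0.29 and *Bcl2l1* 0.29, and *Pim1* had 0.11. *Junb* with 0.087 and *Myc* with -0.051 were close to the median of all genes. Of the inducers of *Il6* and the factors of its mRNA decay, 14 of 16 were measured, 7 higher and 7 lower, with a median of -0.0059 that was above 0 under 4 of the 10 alternatives. *Tlr2*, a receptor for bacterial lipopeptides, was highest with 0.27, and *Il1rap*, a chain of the IL-1 receptor, lowest with -0.34. *Il1a* and *Il1b* were not well above background, *Nfkb1* had -0.18 and *Zfp36*, which destabilizes cytokine mRNAs, had -0.11.

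**Figure D4:**
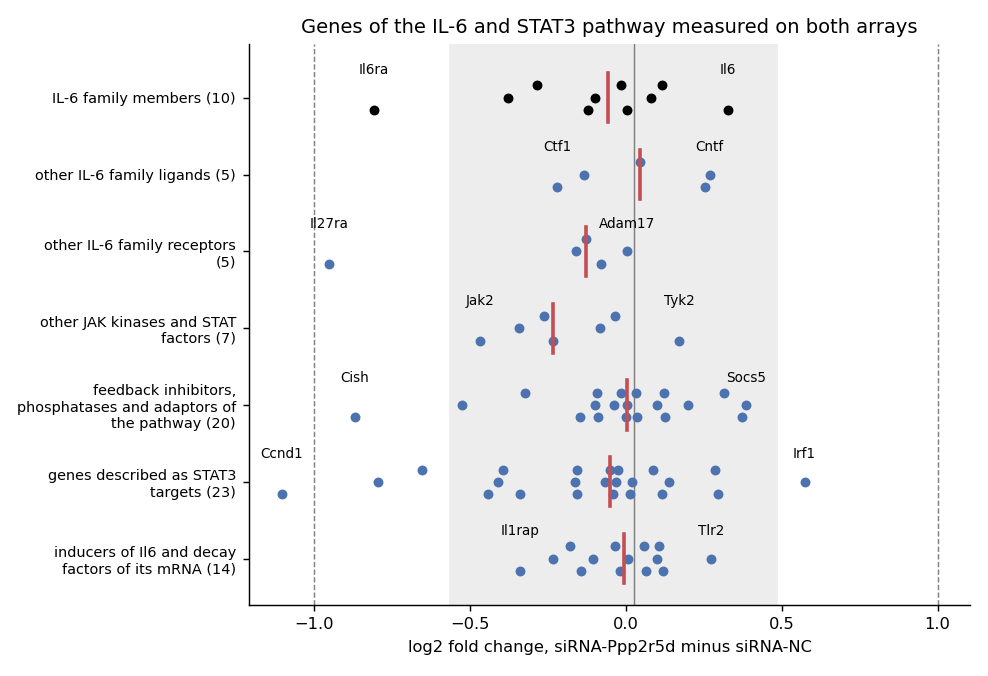
Log2 fold change, siRNA-Ppp2r5d minus siRNA-NC, of each gene measured on both arrays in the 10 IL-6 family members (black) and in 6 lists of the pathway (blue), with the number of genes in brackets and the median of each as a red bar. The grey band is the middle 90% and the grey line the median of all genes, and the highest and lowest gene of each list are named. The medians lie between -0.24 and 0.046, and Ccnd1 is the 1 gene beyond the 2-fold lines.

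Across the 11 settings, *Il6* was the highest and *Il6ra* the lowest of the 10 members in each, and *Il11* and *Socs3* were below 0 in each. The settings reprocess the same 2 arrays and are not replicates. For *Il6st*, *Lif*, *Lifr*, *Osmr*, *Jak1* and *Stat3*, at least 1 of the 10 alternatives gave the opposite sign. Scaling to spike-in probes moved the median of all genes by -0.23. It shifts each array by a constant, so by construction it left the members' distances from that median as they were. *Il6* was at 0.30 and *Il6ra* at -0.83 relative to that median.

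**Figure D5:**
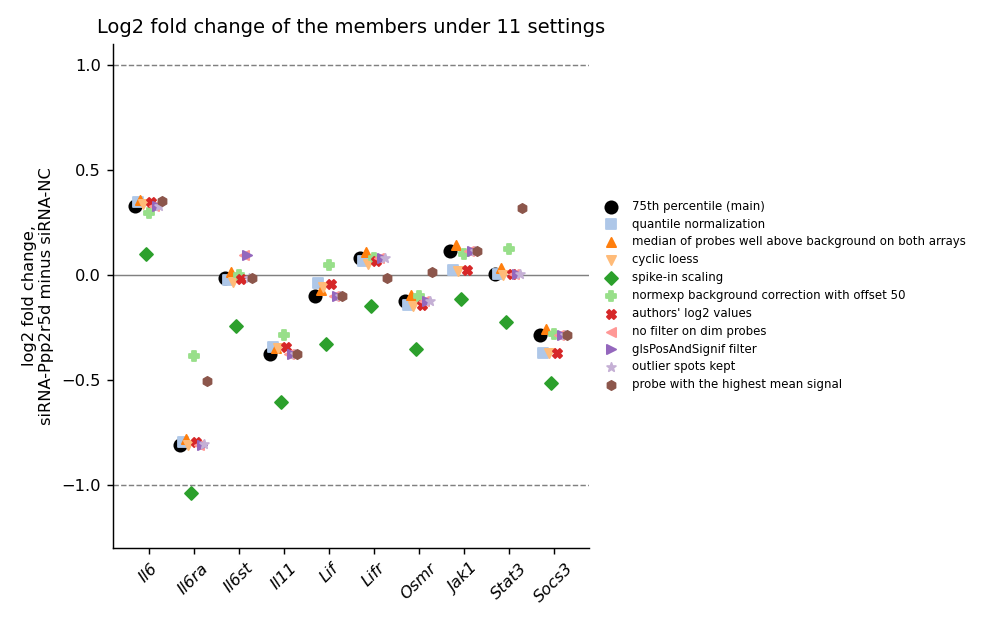
Log2 fold change, siRNA-Ppp2r5d minus siRNA-NC, of the 10 members under the main setting (black circles) and 10 alternatives (coloured symbols), with dashed lines at 2-fold. Spike-in scaling (green diamonds) lies lowest for every member, and Il6ra ranges from -1.04 to -0.39.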

How the data were processed

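RNA of MCMs with siRNA-NC or siRNA-*Ppp2r5d* was hybridized to 1-colour microarrays on 1 slide, 1 array per condition. The authors deposited the intensity of each spot from Agilent Feature Extraction 10.7.1.1, corrected for background within the array, with coordinates of build mm9, and a table of log2 values for 56605 probes. Against a quantile normalization of log2 intensities, that table differed by a median of 0.000127. It was used as an alternative.

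Here, control spots and spots marked as outliers (226 and 188) were left out, spots of a probe were averaged as log2 intensity, and each array was scaled by its 75th percentile. Gene values average the log2 fold changes of all probes well above background on both arrays. Where 1 array alone had such a signal, the dimmer array's signal, raised where needed to the lowest one well above background there, gave a bound. Some items of the lists and probes are not reported here. No test was run. The number of arrays limits the precision.

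Members and lists were chosen with earlier results of these data known. Named are all members, genes past 2-fold, the highest and lowest of each list, and other genes chosen after their values were seen. Alternatives were quantile, median, cyclic loess and spike-in scaling, normexp correction with an offset of 50, the deposited log2 values, 2 other filters, outlier spots kept, 1 probe per gene, and thresholds of 1.5-fold and 4-fold. The gene step was tested on simulated data. R 4.3.3, limma 3.58.1, Python 3.11.15, NumPy 2.4.6, pandas 2.3.3 and matplotlib 3.10.9 were used.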

Additional observations from a re-analysis of the deposited data

How the results depend on the processing

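No paired analysis was possible because each condition had 1 array, and for the same reason no replicate could be left out. Of 10 members, 0 were past 2-fold, and 1 was with spike-in scaling and 1 at a 1.5-fold threshold, each time *Il6ra*. Their median of -0.058 became -0.29 with spike-in scaling, 0.022 after normexp correction and -0.015 with the probe of the highest mean signal. The 533 genes past 2-fold became 2043 without a filter on dim probes, 106 after normexp correction, 2419 with the filter of positive and significant signals, 1991 at 1.5-fold and 41 at 4-fold. A change of threshold or filter alters these counts by construction. Genes with a value from both arrays numbered 20311 in the main setting, 37000 without a filter and 24989 with the filter of positive and significant signals. Where a filter is used, genes with a bound are counted too. The offset of 50 in the normexp correction draws the folds of dim probes toward 0 by construction. Its part in the count of 106 was not tested. Lower genes made up 58.3% of those past 2-fold, but 84.7% with spike-in scaling and 41.5% after normexp correction. Signal over background limits the *Il6ra* probe that read 52.9, the *Stat3* probe that read 32.5 and *Lif*.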
